A study of Mus musculus with 24 samples.

Results

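Static promoter regions are stretches of chromatin at gene starts that were accessible in epidermal stem cells in vivo before SOX9 was induced and at every later time examined. Peaks of the 5 in vivo ATAC-seq lists were merged where they overlapped by at least 1 bp, which gave 98240 regions. Of these, 37116 held a peak in all 5 lists and are called static here. The 14113 static promoter regions are the static regions whose centre lay within 1 kb of an annotated transcript start. They made up 38.0% of the static regions (95% Wilson interval 37.5 to 38.5%) and 14.4% of all regions. The members were selected on measured values, namely the presence of a peak (a score of about 3 or more) in each in vivo list, so all in vivo scores below are given as a description and without a test.

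ATAC-seq maps open chromatin by inserting sequencing adaptors into DNA that nucleosomes leave uncovered. The mice carried K14rtTA, a doxycycline-dependent activator driven by the keratin 14 promoter of basal keratinocytes, and TRE-myc-Sox9, so that doxycycline (DOX) switched on myc-tagged SOX9 in the skin epithelium. The in vivo lists came from basal cells of CD1 male mice that were sorted by flow cytometry as negative for CD31, CD45, CD117 and CD140a, high for CD49f and Ly6A and negative for CD34. They were taken without DOX (D0, postnatal day 21) and after 1 week (W1, postnatal day 28), 2 weeks (W2, postnatal day 35), 6 weeks (W6, postnatal day 63) and 12 weeks (W12) of DOX. Every in vivo group, D0 included, carried both transgenes. The W12 cells were taken from back skin of newborns grafted onto Nude female mice, with DOX from day 21 after grafting, so the length of induction and the tissue source cannot be told apart at W12. Age also rose with the weeks of DOX. A further 7 lists came from keratinocytes in culture, 1 without DOX (noDOX) and 6 with DOX. The paper describes the cultured cells as carrying K14rtTA. The labels name noDOX as the WT-SOX9 line without DOX, so the other lines had no uninduced list of their own. The labels give day 3 of DOX for WT-SOX9, ΔHMG-SOX9 and ΔTA-SOX9 (replicate 1) and no day for the other DOX lists, so culture and in vivo lists also differ in the length of induction. WT-SOX9 expressed the intact protein, ΔHMG-SOX9 lacked the HMG box that binds DNA, and ΔTA-SOX9 lacked the domain that activates transcription. AFOS is a dominant-negative form of FOS, SOX9+AFOS combined it with SOX9, and in SOX9+ARID1a the SWI/SNF subunit ARID1a was overexpressed beside SOX9. Each group was 1 peak list made from 2 replicates whose reads had been merged, so no value below has a replicate error and no difference between lists could be tested.

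The D0 list had 57334 peaks, the W1 list 57767, the W2 list 64095, the W6 list 75956 and the W12 list 71503. The read depth behind each list is unknown. The peak score summed to between 948518 and 996710 in each in vivo list, so scores are read here as shares of a similar total per list. The labelled cell type was checked on marker genes, beside a static promoter region at 56.0% of all annotated coding genes. The suprabasal markers Krt1, Krt10, Ivl and Sbsn had such a region as well as the basal genes. The check therefore does not separate basal from differentiated keratinocytes. Static promoter regions lay at 16 of 16 basal keratinocyte genes, 3 of 9 melanocyte markers (Mitf, Dct and Pmel, the last sharing its region with Cdk2), 3 of 9 fibroblast markers (Col1a1, Pdgfra and Vim), 1 of 7 endothelial markers (Cldn5) and 0 of 11 immune cell markers, and an open promoter is not a measure of expression.

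A promoter is the DNA around a transcript start, where general transcription factors and RNA polymerase II assemble. Many mammalian promoters lie in CpG islands, stretches rich in the dinucleotide CpG that are largely unmethylated and often carry GC boxes, CCAAT boxes and ETS, NRF1 or YY1 sites. They are commonly open in many cell types, whereas promoters poor in CpG, some with a TATA box, tend to serve genes of particular cell types. SOX9 is a transcription factor of hair follicle stem cells that can open closed chromatin, and in skin it is also found in basal cell carcinoma.

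The DNA just upstream of the start is shown for 7 members that recur below. Each line gives the 150 bases before the nearest annotated start, 5′ to 3′ in the direction of transcription, from the RefSeq GRCm38.p6 assembly, with matches to the searched motifs in capitals. Wipi1 was among the steadiest members. Olig1 and Mn1 had far lower scores late than early, whereas Il18 and Ivl had higher ones. Krt5 and Krt14 encode the keratins that define basal keratinocytes.
Wipi1, chr11:109611433-109611582, minus strand: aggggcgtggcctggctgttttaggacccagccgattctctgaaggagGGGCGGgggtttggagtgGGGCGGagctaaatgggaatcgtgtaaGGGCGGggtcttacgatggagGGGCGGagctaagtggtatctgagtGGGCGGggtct
Olig1, chr16:91269622-91269771, plus strand: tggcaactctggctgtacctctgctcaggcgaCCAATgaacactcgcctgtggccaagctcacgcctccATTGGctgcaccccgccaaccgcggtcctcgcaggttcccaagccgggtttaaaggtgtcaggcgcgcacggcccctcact
Mn1, chr5:111417212-111417361, plus strand: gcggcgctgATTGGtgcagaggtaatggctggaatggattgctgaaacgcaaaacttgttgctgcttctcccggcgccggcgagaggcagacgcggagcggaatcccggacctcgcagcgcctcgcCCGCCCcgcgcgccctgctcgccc
Il18, chr9:50554677-50554826, plus strand: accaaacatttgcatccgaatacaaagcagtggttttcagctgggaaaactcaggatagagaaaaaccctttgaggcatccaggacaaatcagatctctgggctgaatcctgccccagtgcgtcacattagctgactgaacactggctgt
Ivl, chr3:92573736-92573885, minus strand: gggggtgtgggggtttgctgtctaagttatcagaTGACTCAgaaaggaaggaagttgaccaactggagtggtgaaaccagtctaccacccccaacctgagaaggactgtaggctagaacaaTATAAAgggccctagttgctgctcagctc
Krt5, chr15:101712899-101713048, minus strand: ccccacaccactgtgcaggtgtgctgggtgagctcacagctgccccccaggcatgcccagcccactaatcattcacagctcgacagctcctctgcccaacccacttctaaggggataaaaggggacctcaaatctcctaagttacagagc
Krt14, chr11:100207549-100207698, minus strand: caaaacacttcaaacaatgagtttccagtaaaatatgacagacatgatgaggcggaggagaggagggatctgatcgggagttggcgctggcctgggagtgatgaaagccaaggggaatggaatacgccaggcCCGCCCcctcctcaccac
The capitals mark 5 GC boxes (GGGCGG or its complement) at Wipi1, 2 CCAAT boxes at Olig1, a CCAAT box and a GC box at Mn1, an AP1 site (TGACTCA) and a TATA box (TATAAA) at Ivl and a GC box at Krt14. No searched motif lay in the windows of Il18 and Krt5. These windows held 9 CpG at Wipi1, 11 at Olig1 and 19 at Mn1, against 2 at Il18, 0 at Ivl, 1 at Krt5 and 5 at Krt14.

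Short stretches show the motifs inside members. Except where stated, each is from the member with the highest mean score among those that hold the motif in the 200 bases around the region's centre. The motif is in capitals with 10 bases on each side.
Pitrm1, GC box, chr13:6547951-6547976, minus strand: ccaggaaaacGGGCGGgagaacgaat
Kyat3, CCAAT box, chr3:142700965-142700989, plus strand: aaatccgtaaCCAATctgtagcctt
Tmem167, ETS, chr13:90089732-90089758, plus strand: ccgccccggcCCGGAAGggtgatgtgg
Etfdh, NRF1, chr3:79628876-79628904, plus strand: tctcgcgtgtGCGCATGCGccctagaagc
Scfd1, YY1, chr12:51377587-51377615, plus strand: ggtgggaagcAAGATGGCGgccacggcca
Stard3nl, CRE, chr13:19395791-19395818, plus strand: accctgtccgTGACGTCAacgcgctggt
Kbtbd7, AP1, chr14:79426535-79426561, minus strand: agtccccggcTGACTCActgtttccct
Celf1, AP1, chr2:90965871-90965897, minus strand: ctacagcctgTGACTCAcagggatgag
Polr3k, GATA, chr2:181864284-181864309, minus strand: tggtcaccgcAGATAAtcctttccca
Bin2, GATA, chr15:100651812-100651837, plus strand: gagtctagcgAGATAAggatgcttgc
Msantd4, SOX, chr9:4376416-4376442, minus strand: gccaggcctcACAATGGgaatcgagtc
Among the members searched, Celf1 was chosen as the AP1-containing one with the largest late excess. Bin2 was chosen as the GATA-containing one with the largest late deficit. The Celf1 region scored 4.30 (D0), 4.09 (W1), 22.7 (W2), 23.7 (W6) and 22.5 (W12). The Bin2 region scored 48.5, 47.5, 11.5, 7.65 and 15.2 at the same times. Kbtbd7, with the same AP1 heptamer as Celf1, scored 100.5, 81.8, 94.2, 81.1 and 74.8, so its scores lay far closer together.

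Static promoter regions sat on the starts that chose them. The nearest transcript start itself lay inside 12655 of 14113 members (89.7%), and the centre was within 250 bp of it in 10992 (77.9%). The centre lay downstream of the start in 54.4% of members and upstream in 45.2%. The nearest start belonged to a protein-coding gene in 12358 members (87.6%), to a long non-coding RNA of any class in 1196 (8.47%) and to a miRNA in 90. Of 22028 annotated protein-coding genes, 12340 (56.0%) had a start within 1 kb of the centre of a static promoter region, and 1870 (8.49%) had only promoter regions that lacked a peak in at least 1 list. Among the genes with a static promoter, 1584 (12.8%) had 2 or more such regions. Protein-coding starts on both strands lay within 1 kb in 1216 members (8.62%), whatever the order of the starts.

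These regions took a large share of the accessible signal at every time. Their part of the summed score was 41.2% (D0), 44.6% (W1), 36.6% (W2), 34.1% (W6) and 34.7% (W12). As a share of peaks they made up 26.1%, 24.8%, 24.7%, 20.2% and 21.2% of the same lists. The median score over the members was 20.4 (D0), 26.6 (W1), 19.6 (W2), 18.9 (W6) and 18.1 (W12). Static regions away from starts (static distal regions, 23003) had medians of 13.5, 13.0, 13.6, 12.4 and 12.9. The promoter median thus stood above the distal median in each list, by most at W1.

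**Figure D1:**
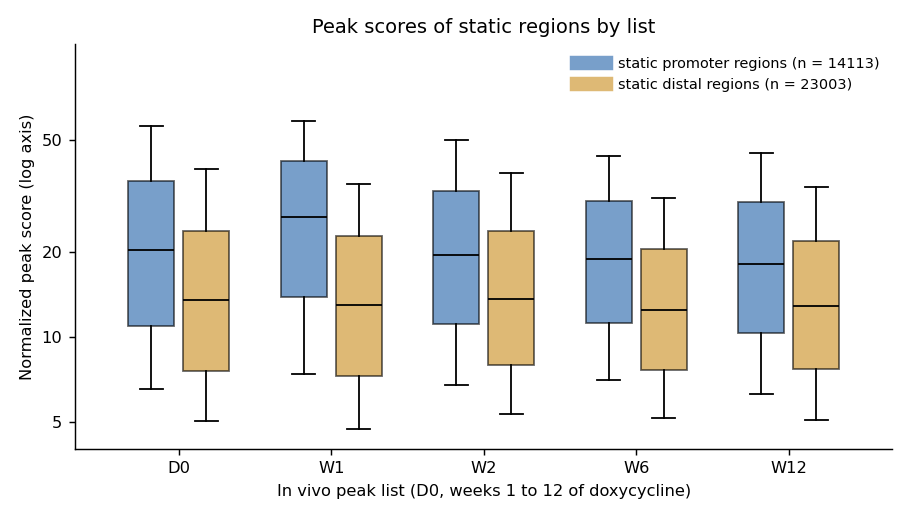
Peak scores (log axis) of static promoter and static distal regions in the 5 in vivo lists, with the median and the quartiles over regions; the spread is over regions, not replicates. The promoter median peaks at W1 (26.6) and lies between 18.1 and 20.4 in the other lists, while the distal medians stay between 12.4 and 13.6.

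The W1 excess depended on the measure. From D0 to W1 the median log2 score difference was 0.24 over the members, with 65.6% above 0, against -0.09 over static distal regions. In fold enrichment over local background, which was deposited for the same peaks, the difference was -0.12 over the members, with 31.5% above 0, and -0.27 over static distal regions. Members stood above distal regions in both measures, but the sign of their own difference turned. Of the members, 1492 (10.6%) scored at least 2-fold higher at W1 than at D0 and 366 (2.59%) at least 2-fold lower, beside 7.70% and 5.08% of all regions with a peak at both times. Against D0 the median log2 difference of the members was -0.08 at W2, -0.14 at W6 and -0.20 at W12.

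Members kept their scores more closely than distal regions that were equally present in all lists. The ratio of the highest to the lowest of the 5 scores had a median of 1.89 over the members and 2.28 over static distal regions. All 5 scores lay within 2-fold in 8068 members (57.2%, interval 56.4 to 58.0%) and in 36.5% of static distal regions, and within 4-fold in 96.2% and 85.4%. Spearman's rho between lists, across the 14113 members, lay between 0.82 (W1 and W6) and 0.91. Across static distal regions it lay between 0.43 and 0.83. These are correlations across regions of pooled lists, and regions are not replicates. Members with higher scores varied less, with a rho of -0.43 between mean log2 score and range.

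W1 was the list with the highest score in 7415 members (52.5%), against 24.7% of static distal regions. W12 was the list with the lowest score in 4351 (30.8%), against 18.3%. Scores were higher in each list than in the list before in 36 members (0.255%), against 0.804% of static distal regions, and lower in each in 259 (1.84%), against 1.6%.

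Late scores were mostly below early ones, by an amount that rested in part on the W1 list. The late against early difference was taken as the mean log2 score at W6 and W12 minus the mean at D0 and W1. Its median was -0.31 over the members (quartiles -0.56 to -0.04), -0.10 over static distal regions and -0.22 over all static regions. The members' median was -0.16 without the W1 list, -0.16 with each list divided by its median over static regions and -0.10 after quantile normalisation. Both late scores lay under both early scores in 5860 members (41.5%) and above both in 1151 (8.16%). For static distal regions these shares were 33.0% and 24.8%. Large differences were uncommon in either direction. At least 2-fold higher late were 322 members (2.28%, interval 2.05 to 2.54%), beside 7.60% of all static regions and 10.9% of the distal ones. At least 2-fold lower late were 592 (4.19%), beside 9.08% of all static regions and 12.1% of the distal ones. Without the W12 list the late-higher count was 512 (3.57% of the members then found). Since the scores also chose the regions, the sets are described below without a test.

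The split between higher and lower members moved with the scaling. It was 322 higher and 592 lower on the deposited scores (35.2% higher). It was 460 and 357 (56.3% higher) with each list divided by its median over static regions, 381 and 390 (49.4% higher) after quantile normalisation, and 11 and 82 (11.8% higher) in fold enrichment. Over all static regions the higher share of calls moved alike, with 45.6%, 59.6%, 54.9% and 12.6% in the same order. Dividing by the static median moved the median of all static regions from -0.22 to -0.07. The members' median lay below that of all static regions by 0.10 on the deposited scores, 0.06 after quantile normalisation and 0.02 in fold enrichment, so its size relative to other regions also depended on the measure.

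The highest mean scores belonged to 2 loci far above the rest. The pseudogene Gm28438 (chr1:24612549-24613487) scored 2655 (D0), 1803 (W1), 697.3 (W2), 425.1 (W6) and 1573 (W12). In this interval 95.4% of the 25-base words also occurred in the mitochondrial genome, and mitochondrial DNA is itself open to the enzyme. In the pseudogene region Gm13340 the share was 69.3%, with scores of 185.1, 43.4, 186.7, 105.0 and 94.1. How far mitochondrial reads enter these scores was not tested.

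Gm10800 (chr2:98666229-98667443) scored 1251, 783.2, 869.1, 945.3 and 1891, and its neighbour Gm10801 76.9, 122.6, 164.8, 161.8 and 152.6. Gm23935, annotated as a miRNA, had a mean of 144.8 and the pseudogene Gm10060 one of 134.7. The remaining 5 of the 10 highest were named coding genes. Kyat3, an enzyme of the kynurenine pathway, scored 179.7, 120.4, 163.4, 117.1 and 109.6 (chr3:142700440-142701549). Pitrm1, a mitochondrial metallopeptidase, scored 187.1, 124.5, 153.0, 110.6 and 111.9. M6pr, the receptor that carries lysosomal enzymes, scored 183.7, 108.1, 135.1, 100.8 and 136.1. In these 3 coding genes D0 was the highest list and W6 or W12 the lowest, with ranges of 1.64-fold to 1.82-fold. Uggt2, a glycoprotein folding sensor of the endoplasmic reticulum, ranged 2.04-fold (195.8 at D0, 95.9 at W1) and Scai 1.40-fold.

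The steadiest members of the upper quartile by mean score held nearly the same score in every list. Gpd1l, a relative of glycerol-3-phosphate dehydrogenase, scored 52.3 (D0), 50.8 (W1), 51.2 (W2), 51.2 (W6) and 53.6 (W12), a range of 1.05-fold. Wipi1, an autophagy protein, stayed between 49.3 and 53.2. Otud4, a deubiquitinase, stayed between 49.1 and 53.1, and Rpp40, a subunit of ribonuclease P, between 42.6 and 46.1.

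Members with the largest late excess were mostly low at both D0 and W1 and already high at W2. The promoter of the lincRNA Gm36823 (chr3:38443348-38444165) scored 3.90 (D0), 3.96 (W1), 40.6 (W2), 38.3 (W6) and 37.5 (W12), 9.65-fold higher late. Il18, an inflammatory cytokine of the interleukin 1 family made by keratinocytes, scored 7.29, 3.41, 22.0, 38.6 and 51.2 (chr9:50554580-50555384), 8.92-fold higher late. A start of the coding gene Bco2 also lay within 1 kb of the centre of this region. A region centred 882 bp upstream of the start of Pmm1, a phosphomannomutase, scored 5.26, 4.09, 31.6, 35.2 and 31.6, 7.19-fold higher. The Il18 score was highest at W12, whereas Gm36823 and Pmm1 were level from W2 on.

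Nrxn3, a neurexin best known from synapses, scored 15, 6.07, 36.3, 79.0 and 46.4, with its highest value at W6. Hrh1, the histamine H1 receptor, scored 10.9, 4.56, 11.9, 38.2 and 42.9, and was therefore near its D0 level at W2 and high only at W6 and W12. The region 728 bp downstream of a start of Celf1, an RNA-binding protein, was level from W2, as given with its sequence. The other 4 of the 10 were the lincRNAs Gm35404 and Gm13293, the pseudogene Gm14237 and Gm47586, with late over early ratios between 5.76 and 6.48. All 10 had a lower score at W1 than at W6 and W12, as the choice of these members fixed. In fold enrichment 5 of the 10 stayed at least 2-fold higher late (Gm36823, Il18, Pmm1, Gm47586 and Celf1).

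Members with the largest late deficit had D0 scores from 15.4 to 43.9, beside a median of 20.4 over all members. A region centred 875 bp upstream of the start of Svopl, a transporter-like membrane protein, scored 39.3 (D0), 44.3 (W1), 9.75 (W2), 4.96 (W6) and 7.57 (W12). Olig1, a transcription factor of the oligodendrocyte lineage, scored 39.6, 45.7, 11.7, 6.08 and 7.87 (chr16:91269412-91270198). Mn1, a transcriptional regulator, scored 15.4, 25.2, 13.3, 4.17 and 3.60 (chr5:111416986-111417762). Svopl and Olig1 were already low at W2, while Mn1 was still near its D0 score then. The lincRNA Gm13667 scored 21.7, 28.5, 13.3, 3.26 and 3.87, the lowest late over early ratio of all members chosen (0.143). The other 6 were the lincRNAs Gm42031 and 4930562A09Rik, the snoRNAs Gm26278 and Gm22792, and Gm37685 and Gm37774, whose coding status the annotation leaves unsettled, with ratios between 0.168 and 0.194. In fold enrichment 5 of the 10 stayed at least 2-fold lower late (Olig1, Gm42031, Gm26278, Gm22792 and Mn1).

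**Figure D2:**
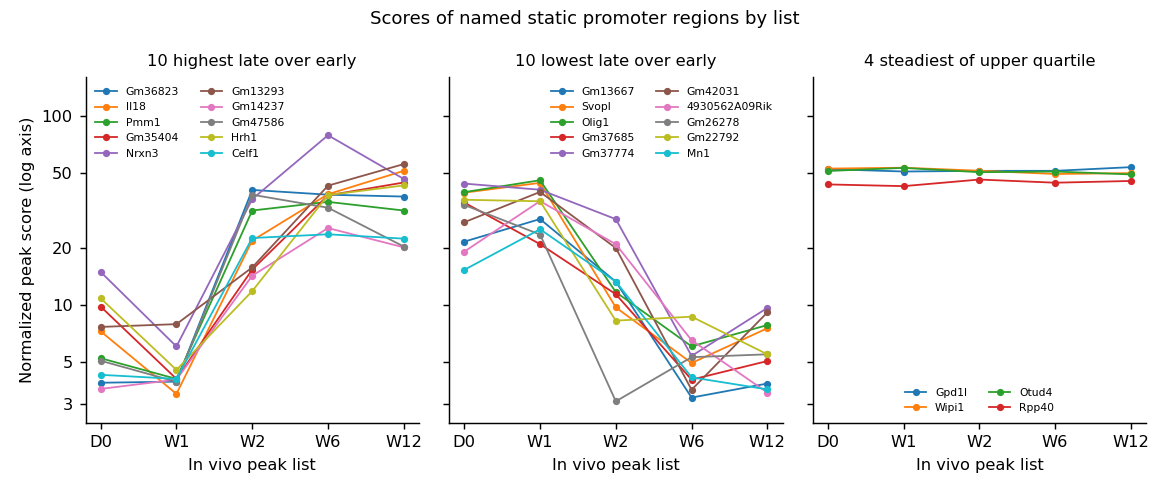
Peak score (log axis) in the 5 in vivo lists for the 10 members with the highest late over early ratio, the 10 with the lowest and the 4 steadiest of the upper quartile, each line 1 region of pooled replicates. Most of the first set are higher from W2 on than at D0 and W1, the second set are low by W6, and the steady set stay between 42.6 and 53.6.

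The members that moved by at least 2-fold differed in other respects from the 13199 that did not. The central CpG ratio, the number of CpG over that expected from the C and G content of the central 200 bases, had a median of 0.33 in the late-higher set, 0.52 in the late-lower set and 0.79 in the rest. Median width was 727.5, 844 and 985 bp. Protein-coding genes were nearest in 66.1%, 78.0% and 88.5%. Their score level was also lower, with medians of the geometric mean score of 11.9, 13.0 and 21.

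Gene lists are read below against 3 shares. Of all annotated coding genes 56.0% had a static promoter. At least 2-fold higher late were 2.28% of members and 7.60% of all static regions, and at least 2-fold lower 4.19% and 9.08%. At these rates a list of 10 to 25 genes holds few calls or none, so a count of 0 says nothing about a list.

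The basal keratinocyte list holds keratins, integrins, laminins and other adhesion genes together with Trp63, and all of its genes had a static promoter (16 of 16). Their median late against early difference was -0.22, beside -0.31 over all members and -0.22 over all static regions. In either direction 0 of 16 differed 2-fold, a count too small to read against the shares above. Krt5, a basal keratin, scored 21.7 (D0), 24.1 (W1), 20.5 (W2), 12.9 (W6) and 20.7 (W12) (chr15:101712637-101713279). Its partner Krt14 scored 23.7, 18.2, 16.3, 13.2 and 21.2 (chr11:100207295-100209174). Both were lowest at W6 and close to their D0 score in the grafts of W12. Trp63, the master regulator of stratified epithelia, scored 20.3, 22.9, 11.6, 10.2 and 16.5, and the integrin Itgb1 42.2, 55.0, 42.5, 44.1 and 32.2. Trp63 thus shared the W6 minimum, and Itgb1 did not.

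Of 20 epidermal fate genes, 16 had a static promoter, 3 had only a promoter region that lacked a peak in some list (Zfp750, Notch1 and Jag2) and 1 had none (Notch3). The median difference was -0.40. Ivl, the cornified envelope protein involucrin, was the 1 of 16 at least 2-fold higher late, beside 7.60% of all static regions, and 0 were 2-fold lower, beside 9.08%. It scored 6.51, 5.80, 26.4, 19.4 and 12.1 (chr3:92573506-92574197), with its maximum at W2. Gata3, a factor of epidermal differentiation, scored 41.7, 36.9, 42.7, 23.6 and 33.3. Klf5, a proliferative keratinocyte factor, scored 90.1, 60.4, 72.9, 69.8 and 81.3, and the suprabasal keratin Krt1 8.26, 11.2, 11.4, 5.04 and 6.57. Gata3 and Krt1 were lowest at W6, whereas Klf5 was lowest at W1 and near its D0 score at W12.

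Of 20 hair follicle stem cell genes, 18 had a static promoter, and Lgr5 and Cd34 had only promoter regions missing from some list. The median difference was -0.44, with 3 of 18 at least 2-fold lower late, beside 9.08% of all static regions, and 0 at least 2-fold higher, beside 7.60%. Krt15, a keratin of hair follicle stem cells, scored 16.1, 25.7, 9.99, 5.49 and 11.5. Nfix, a nuclear factor I family member, scored 8.94, 9.55, 6.32, 4.09 and 3.19 at the higher of its static promoter regions. The Wnt receptor Fzd7 scored 26.8, 38.9, 18.3, 15.9 and 16.1. These 3 were highest at W1, and against D0 alone Fzd7 was not 2-fold lower (0.596). Tcf7l1, a repressor of Wnt targets in follicle stem cells, went the other way with 9.94, 9.45, 16.8, 17.1 and 21.4, a ratio of 1.97. Of the 18 differences 7 were above 0, beside 22.5% of the members and 36.5% of all static regions.

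The promoter of Sox9 itself (chr11:112781533-112783117) was open before induction. It scored 13.8 (D0), 17.3 (W1), 21.2 (W2), 15.9 (W6) and 10.3 (W12), a range of 2.05-fold without a late excess. The transgene carries Sox9 sequence, so reads over Sox9 exons can come from either copy. Exon 3 carried a peak of 13.5 at D0, none at W1, and peaks of 15.1, 9.22 and 8.84 at W2, W6 and W12.

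The hedgehog and basal cell carcinoma list had a static promoter at 13 of 18 genes, a median difference of -0.26 and 1 member at least 2-fold lower late. Ctnnb1, which encodes β-catenin, scored 6.82, 18.2, 6.04, 5.72 and 3.81, so its ratio of 0.419 rested on the W1 score (0.685 against D0 alone). Gli1, a transcriptional effector of hedgehog signalling, scored 16.6, 18.1, 23.6, 21.4 and 20.3, a ratio of 1.20. The AP1 list had a static promoter at 10 of 12 genes and a median of -0.15. Fosb scored 7.04, 9.72, 5.41, 3.64 and 3.72 and was the 1 AP1 gene at least 2-fold lower late, but not against D0 alone (0.523). Jun scored 24.3, 33.0, 40.5, 30.4 and 26.7, highest at W2, and Atf3 9.11, 16.7, 22.9, 17.6 and 16.9.

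Chromatin regulators had static promoters throughout: 25 of 25 SWI/SNF genes, the remodelling complex that moves nucleosomes, and 10 of 10 MLL3/4 complex genes, which methylate histones at enhancers. Their median differences were -0.30 and -0.34, beside -0.31 over all members, and 0 genes of either list differed 2-fold, beside 2.28% of members higher and 4.19% lower. Several were highest at W1. Kmt2d, the MLL4 methyltransferase, scored 3.91, 12, 5.12, 6.11 and 5.98, and the SWI/SNF subunit Brd7 scored 7.29, 24.9, 12.1, 9.64 and 9.43.

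Housekeeping lists were complete as well, with 79 of 79 cytosolic ribosomal protein genes, 14 of 14 proteasome core genes, 13 of 13 RNA polymerase II subunit genes and 24 of 24 cell cycle genes. Over the ribosomal protein promoters the median score was 22.7 (D0), 34.6 (W1), 18.0 (W2), 19.5 (W6) and 19.1 (W12), so W1 stood out in this group. The median late against early difference was -0.46 for ribosomal protein genes, -0.36 for the proteasome, -0.53 for RNA polymerase II and -0.35 for the cell cycle. At least 2-fold lower late were Rpl9 and Rpl12 of the first list, Polr2c and Polr2e of the third and Mcm2, a replicative helicase subunit, of the fourth, and 0 members of these lists were 2-fold higher. All 5 calls rested on W1: against D0 alone the late ratio was 0.590 for Rpl9, 0.573 for Rpl12, 0.728 for Polr2c, 0.683 for Polr2e and 0.572 for Mcm2.

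Rpl12 scored 16.9, 29.2, 9.93, 8.72 and 10.8, and Polr2e 15.1, 35.4, 13.8, 10.1 and 10.6. Rps21 scored 58.5, 72.3, 57.6, 76.0 and 72.6 and was the 1 ribosomal protein gene with a difference above 0. The group therefore shared the W1 maximum, while single genes differed in their later scores. W1 had a higher score than D0 for promoters at large, as given above, and this was not seen in fold enrichment.

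Interferon and antigen presentation genes had a static promoter at 13 of 17, beside 56.0% of coding genes, with a median of -0.36 and 0 of 13 past 2-fold, beside 7.60% higher and 9.08% lower of all static regions. Ifit1, an interferon-induced antiviral gene, scored 4.92, 4.09, 3.97, 3.26 and 14.6, with its only high value in the grafts of W12. The immediate early and heat shock list had a static promoter at 20 of 20 genes and a median of -0.22, and only Fosb (at least 2-fold lower late) passed 2-fold in it.

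Members were wide. The merged region had a median width of 975 bp (quartiles 760 to 1234 bp, from 277 to 3651 bp), against 689 bp for static distal regions and 419 bp for promoter regions missing from some list. Within a list, the median span of a member's peaks was 839 bp (D0), 886 bp (W1), 714 bp (W2), 796 bp (W6) and 828 bp (W12). The W2 list was the narrowest and also the one in which a member most often held 2 or more peaks (11.3%, against 1.64% at W1). Width went with the number of starts. Members with 1 distinct start within 1 kb had a median of 840 bp, those with 2 to 4 had 982 bp and those with 5 or more 1076 bp. Members with coding starts on both strands had a median of 1136 bp (interval 1112 to 1158), the others 958 bp (951 to 965). Across members, width and mean log2 score had a Spearman's rho of 0.31.

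The widest member, at the lincRNA Gm26917 (chr17:39843045-39846695), spanned 3651 bp and scored 94.5, 74.3, 74.3, 66.3 and 98.8. Usp53, a tight junction protein, had a region of 2813 bp, Utrn, which encodes the dystrophin relative utrophin, one of 2716 bp, Trim7 one of 2663 bp and Crim1 one of 2624 bp. The scores of Usp53 ranged 1.36-fold and those of Crim1 2.13-fold, so wide members were not all equally steady.

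Some members sat at the edge of the rule. A lowest score under 4 was found in 981 members. Vim, an intermediate filament gene of mesenchymal cells, scored 5.76 (D0), 3.0 (W1), 8.75 (W2), 12.4 (W6) and 11.5 (W12). Zfp219 scored 3.0, 3.34, 5.03, 5.66 and 8.94, and Tmem255b 5.73, 6.02, 3.97, 3.26 and 3.0. Just outside, 1302 promoter regions held a peak in 4 of the 5 lists, of which 448 were missing only at W1, 272 at W2, 224 at D0, 218 at W12 and 140 at W6. In distance, 98 static regions had their centre 951 to 1000 bp from a start and 128 had it 1001 to 1050 bp away, with median scores of 10.5 and 13.2.

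Sequence composition, which the rule did not use, set the members apart from other regions. The central CpG ratio had a median of 0.78 in static promoter regions, 0.33 in promoter regions missing from some list, 0.24 in static distal regions and 0.50 at all 93462 annotated protein-coding transcript starts. A ratio above 0.6 was found in 68.4% of members (interval 67.6 to 69.1%), 25.6% of promoter regions missing from some list (24.6 to 26.6%), 6.54% of static distal regions and 43.9% of all coding starts. The GC content had medians of 64.5%, 53.0%, 50% and 57.0% in the same order. Large score differences were spread unevenly over this ratio, and 235 of the 322 late-higher members lay in the lowest quartile group. Divided into quartile groups by CpG ratio, the share at least 2-fold higher late was 6.66% in the lowest group, then 1.67%, 0.62% and 0.17% in the highest. The share at least 2-fold lower late was 8.33%, 3.03%, 2.27% and 3.15%. The W1 score also followed the ratio, with medians of 15.6, 26.6, 31.4 and 33.0 from the lowest to the highest group, against 14.9, 20.6, 23.4 and 23.3 at D0. The score level was also higher in the upper groups, and the part of score level in these shares was not tested.

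**Figure D3:**
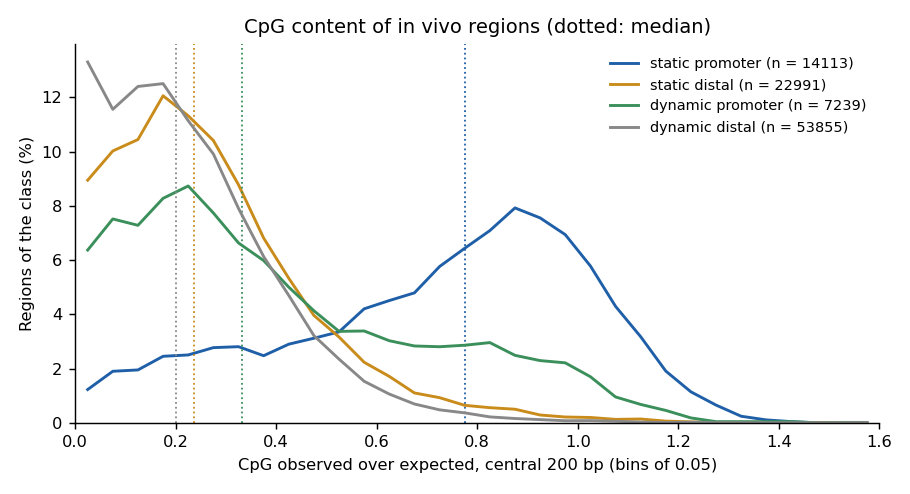
Distribution of the central CpG ratio (CpG observed over expected, 200 bases) in static promoter, static distal, dynamic promoter and dynamic distal regions, as percent of each class. Dynamic means missing from at least 1 in vivo list, and distal means away from transcript starts. Static promoter regions have their bulk above 0.6 (68.4%), dynamic promoter and static distal regions below it.

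Motifs were searched as exact letters on both strands of the central 200 bases, and a match is a description, not a bound site. The letters of the GC box were GGGCGG, those of the CCAAT box CCAAT and those of ETS sites CCGGAAG. NRF1 sites were read as GCGCATGCG, YY1 sites as AAGATGGCG and CRE sites as TGACGTCA. The E-box was read as CACGTG, the ZBTB33-type site as CTCGCGAG and the ZNF143 site as ACTACAATT. For AP1 the letters were TGACTCA, whose reverse strand reads TGAGTCA. For SOX they were ACAATGG, with ACAATAG as a further form. GATA sites were read as AGATAA and RUNX sites as TGTGGT. A base could belong to more than 1 match. A GC box, the site of SP and KLF factors, was found in 46.9% of members, 22.5% of promoter regions missing from some list, 8.85% of static distal regions and 32.5% of all coding starts. An ETS match was found in 9.0%, 1.96%, 1.6% and 8.09%, and an NRF1 match in 1.29%, 0.249%, 0.157% and 1.29%. The CCAAT box was about equally frequent in each class (21.7%, 20.6%, 22.0% and 23.7%). Matches of AP1, GATA and SOX, factors also known from enhancers, were rarer in members than in static distal regions. AP1 was found in 5.06% of members (interval 4.71 to 5.43%) against 22.4% of static distal regions, 14.6% of promoter regions missing from some list and 2.69% of all coding starts. AP1 was thus less frequent than in distal regions and more frequent than at coding starts. GATA was found in 3.21% of members, 11.4% of static distal regions and 5.72% of coding starts, and SOX in 1.89%, 3.90% and 2.91%. TATAAA lay 20 to 40 bases before the nearest start in 0.829% of members and 1.10% of coding starts. A YY1 match was found in 1.74% of members, 0.135% of static distal regions and 1.78% of coding starts, and a RUNX match in 7.89%, 14.7% and 10.7%. CRE matches were found in 1.45% of members, 0.513% of static distal regions and 1.43% of coding starts, and E-box matches in 5.42%, 4.11% and 4.74%. ZBTB33-type matches were found in 0.836%, 0.0261% and 0.734%, and ZNF143 matches in 0.191%, 0.0826% and 0.225%.

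Motif matches were unevenly spread over the score differences. Of the 714 members with an AP1 match, 83 were at least 2-fold higher late (11.6%, interval 9.48 to 14.2%), against 1.78% of those without (1.57 to 2.02%) and 7.60% of all static regions. Their median late against early difference was -0.07, against -0.32. AP1 members had a low CpG ratio (median 0.29), and the part of this in the difference was not tested. Within the lowest CpG quartile group the share higher late was 14.5% of 524 with a match (11.8 to 17.8%) and 5.29% of those without (4.54 to 6.15%), and there too the CpG ratio was lower with a match (0.22 against 0.31). AP1-containing members made up 25.8% of the late-higher set and 4.46% of the members within 2-fold. Static distal regions had a like pattern, with an AP1 match in 33.4% of the late-higher ones and 22.4% of all. The Celf1 stretch shown above is from the AP1-containing member with the largest late excess among those searched for stretches.

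GATA matches were more frequent among members at least 2-fold lower late. Of 453 members with a match, 54 were at least 2-fold lower late (11.9%, interval 9.25 to 15.2%), against 3.94% of those without (3.62 to 4.28%) and 9.08% of all static regions. At least 2-fold higher late were 3.53% (2.19 to 5.66%) and 2.24%, and the median difference was -0.35 with a match and -0.31 without. In the lowest CpG quartile group the late-lower shares were 15.1% (11.3 to 19.8%) and 7.77% (6.89 to 8.74%). The late-higher shares there were 5.88% with a match and 6.72% without. Bin2, shown above, had the largest deficit of the GATA-containing members searched for stretches. In static distal regions a GATA match was found in 21.1% of the late-lower ones, 8.06% of the late-higher ones and 11.4% of all. With a SOX match, 16 of 267 members were higher late (5.99%, 3.72 to 9.51%), against 2.21% of those without (1.98 to 2.47%) and 7.60% of all static regions. In static distal regions a SOX match was found in 7.66% of the late-higher ones and 3.90% of all. With a GC box 0.846% were higher late and with an ETS match 0.394%. Of 205 members with a CRE match 9.27% were lower late (6.01 to 14%), against 4.12% of those without and 9.08% of all static regions. The intervals cover counting error over regions only. The in vivo lists gave both the members and the differences, so these shares describe these pooled lists.

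**Figure D4:**
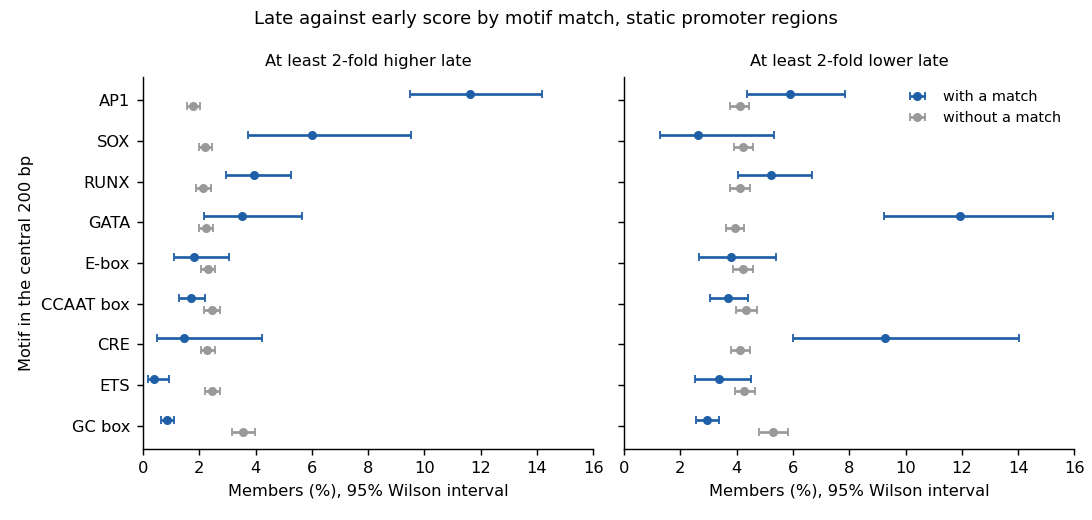
Share of static promoter regions at least 2-fold higher and at least 2-fold lower late, for members with and without each motif in the central 200 bases, with 95% Wilson intervals over regions. The gap is widest for AP1 in the late-higher share (11.6% against 1.78%) and for GATA in the late-lower share (11.9% against 3.94%).

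The culture lists were not used to choose the members. Of the 14113 members, 88.4% had a peak in noDOX keratinocytes (interval 87.9 to 88.9%), against 66.7% of static distal regions and 32.5% of promoter regions missing from some in vivo list. The share was 86.7% in WT-SOX9, 86.0% in ΔHMG-SOX9, 85.9% in ΔTA-SOX9, 83.5% in AFOS, 84.1% in SOX9+AFOS and 78.4% in SOX9+ARID1a (77.7 to 79.1%). In all 7 culture lists 10359 members (73.4%) had a peak, against 38.6% of static distal regions, and 1045 (7.40%) had none, against 21.2%. The SOX9+ARID1a list, lowest for the members, was not lowest for static distal regions (62.9%, second to noDOX). The widest peak was 2227 bp in SOX9+ARID1a and about 3.6 kb in AFOS (3560 bp) and SOX9+AFOS (3583 bp), but 9245 to 10772 bp in the other 4 lists, and the part of this difference in peak calling in the shares was not tested.

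**Figure D5:**
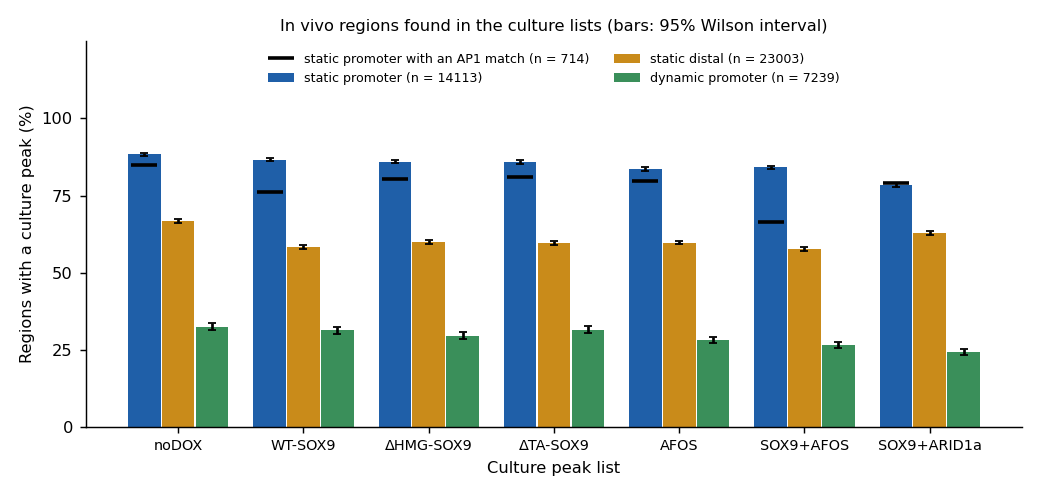
Percent of static promoter, static distal and dynamic promoter regions with a peak in each of the 7 culture lists, with 95% Wilson intervals over regions; each list is 1 pool of 2 replicates. Static promoter regions lie between 78.4 and 88.4% in every list, above the other classes.

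Between the WT-SOX9 and noDOX lists, the median log2 score difference over the 12004 members with a peak in both was 0.20 (quartiles -0.09 to 0.46), against -0.47 over 12505 static distal regions. At least 2-fold higher in WT-SOX9 were 384 members (3.20%), beside 5.80% of all in vivo regions with both peaks. At least 2-fold lower were 485 (4.04%), beside 18.5% of all and 27.1% of the static distal regions. Across members the culture difference and the late against early difference had a Spearman's rho of -0.06. The D0 and noDOX scores had a rho of 0.66 across 12477 members and 0.43 across static distal regions.

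The members that differed in vivo were less often open in culture. A noDOX peak was found in 72.0% of the late-higher set, 69.4% of the late-lower set and 89.7% of the rest. By CpG quartile group the share was 74.5%, 89.6%, 94.4% and 95.2%. Svopl, Olig1, Gm13667, Gm37685 and Gm22792, all with D0 scores of 21.7 or more, had no peak in any culture list. Among the late-higher members, Gm36823 scored 44.6 in noDOX and 74.8 in WT-SOX9, Il18 4.81 and 13.2, Pmm1 14.2 and 24.6, Nrxn3 42.5 and 50.2 and Celf1 11.2 and 36.8. Of the other late-higher members, Gm13293 scored 27.7 in noDOX and 9.85 in WT-SOX9, Gm35404 and Gm14237 had noDOX peaks of 4.55 and 7.29 and no WT-SOX9 peak, and Gm47586 had no noDOX peak and 14.4 in WT-SOX9. The 10 members thus went both ways in culture. Hrh1 had 8.38 in noDOX and no peak in WT-SOX9, and 39.3 in ΔTA-SOX9. Wipi1, steady in vivo, scored 61.4 in noDOX and 77.3 in WT-SOX9.

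Presence in the culture lists also differed by AP1 match. A peak was found in 84.9% of them in noDOX (interval 82.1 to 87.3%), 76.2% in WT-SOX9 (72.9 to 79.2%), 80.4% in ΔHMG-SOX9, 81.1% in ΔTA-SOX9, 79.8% in AFOS (76.7 to 82.6%), 66.4% in SOX9+AFOS (62.8 to 69.8%) and 79.1% in SOX9+ARID1a. For members without a match the shares were 88.6%, 87.2%, 86.3%, 86.1%, 83.7%, 85.0% (84.4 to 85.6%) and 78.4%. The gap between both kinds of member was widest in SOX9+AFOS and next widest in WT-SOX9, and none was detectable in SOX9+ARID1a. Within the lowest CpG quartile group the order changed. There members with a match had a peak more often in noDOX (83.4% against 72.9%), WT-SOX9 (72.5% against 68.5%) and SOX9+ARID1a (78.6% against 64.9%), and less often in SOX9+AFOS (62.2% against 69.9%). Where both peaks were present, the WT-SOX9 minus noDOX difference had a median of -0.23 with an AP1 match (530 members) and 0.21 without (11474). For members with a GC box it was 0.26 and for those with a SOX match 0.15. AP1-containing members thus stood above the other members in the late against early difference in vivo and below them in the WT-SOX9 difference in culture.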

How the data were processed

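Basal epidermal cells and cultured keratinocytes were profiled by ATAC-seq. Per the submitters' processing notes the tools included Bowtie2 2.2.9, SAMtools 1.9, Picard 2.3.0, MACS2 2.1.1 and deepTools 2.5.4, on GRCm38. For each of 12 groups the authors merged 2 biological replicates and deposited 1 list of peaks. The paper states that peak calling was normalised because reads and depth affect it, with a threshold of 3. The deposited score appears to share 1 total over lists, which is inferred from similar sums and not stated. For the in vivo lists the deposited fold enrichment, a ratio over local background, and the deposited −log10 q were also used. Depth was not given in the sources used here, so no value has an interval for depth.

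Peaks were merged over 5 lists, a region took its highest peak score per list, and distance ran from the region's centre to transcript starts of GENCODE M21 (141862 transcripts). CpG and motifs were counted in 200 bases of RefSeq GRCm38.p6. Named members were those with the 10 highest mean scores, the 10 largest differences late against early each way with both late scores beyond both early ones, the 5 steadiest of the upper quartile, the 5 widest, those nearest the threshold, and the genes of 17 lists. For a listed gene with several members, the region with the highest mean score was used. Members, lists and comparisons were chosen with earlier results of these data known. Intervals of shares are 95% Wilson intervals and those of medians use binomial order statistics; both cover counting error over regions only. The scripts (Python 3.11.15, pandas 2.3.3, numpy 2.4.6, scipy 1.17.1, pysam 0.24.0, matplotlib 3.10.9) were tested on simulated lists. Alternatives changed the start window, the annotation, the lists, the score or q minimum, the scaling and the measure. Some named members are not reported here.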

Additional observations from a re-analysis of the deposited data

How the results depend on the processing

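Values as reported were 14113 members, a 38.0% promoter share of static regions, a median late against early difference of -0.31, 322 members higher and 592 lower late, a 88.4% noDOX share, a median width of 975 bp and a median CpG ratio of 0.775. The number of members stayed within 1.5 times in every alternative. With starts within 500 bp, within 2 kb and of protein-coding genes only, the promoter share was 34.4%, 43.3% and 34.5%, the difference -0.32, -0.30 and -0.32, the noDOX share 89.7%, 86.4% and 90.1%, the width 993, 939 and 993 bp and the CpG ratio 0.802, 0.729 and 0.802. Without the W1 list they were 36.2%, -0.16, 87.3%, 892.5 bp and 0.766. Without W12 the difference was -0.28, with 512 members (3.57%) higher late, a noDOX share of 87.6% and a width of 951 bp. With scores of at least 5 the values were 43.2%, -0.33, 92.5%, 1004 bp and 0.797, with 161 (1.30%) higher late. With a common −log10 q of at least 14.48 they were 44.3%, -0.33, 93.4%, 1016 bp and 0.804, with 188 (1.62%) higher and 338 (2.92%) lower. Summed peak scores gave -0.30, fold enrichment -0.20 with 11 higher and 82 lower, scaling by the static median -0.16 with 460 higher and 357 lower, and quantile normalisation -0.10 with 381 higher and 390 lower. Over the whole region the CpG ratio was 0.704. The median difference stayed below 0 in these alternatives, whereas lower members outnumbered higher ones on the deposited scores and not when scaled by the static median. The cause of the shifts was not tested. No paired analysis was possible because each group is 1 list of merged replicates, so no replicate could be left out either. Unknown depth limits comparisons of low scores near 3.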
